A study of Mus musculus with 3 samples.

Results

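Genes of chemokines and other secreted inflammatory factors were examined in L929 cells, a mouse fibroblast line derived from connective tissue. The set of 10 genes also held Nfkbia, whose product is not secreted. The genes were Cxcl1, Cxcl5, Cxcl12, Ccl2, Ccl7, Csf1, Il6, Lcn2, Saa3 and Nfkbia. The list was in part chosen by the measured knock against control differences of Cxcl1, Ccl7 and Lcn2, so every difference below is a description and supports nothing on its own. Of the 10 genes, 8 had a row among the 20716 symbols of the CBTi-seq table, and 8 had a count among the 55295 symbols and identifiers of the 3' tables. Cxcl5 and Cxcl12 had no CBTi-seq row, and Cxcl5 and Ccl2 had no 3' count.

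The study compared L929 cells with a knockdown of Rrm2, the small subunit of ribonucleotide reductase, with control L929 cells. Both kinds were read by CBTi-seq, for which cells are picked singly with a capillary, and by 3' sequencing, which reads the ends of transcripts. In the CBTi-seq sample 10 columns carry the name control and 10 the name knock, and they are called control and knock cells here. The 3' samples, 1 labelled control and 1 labelled knock, have 8 numbered columns each. The sources used here do not give how the knockdown was made, what the control cells carried or what a numbered 3' column holds. The 3' samples and the CBTi-seq sample all come from 1 cell line, and with 1 sample per group no difference was tested against replicates.

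Chemokines are small secreted proteins that draw leukocytes along a gradient through G protein-coupled receptors. Fibroblasts release them, together with colony-stimulating factors and acute-phase proteins, when Toll-like, interleukin-1 or tumour necrosis factor receptors activate the transcription factor NF-kB. NF-kB is held in the cytoplasm by its inhibitor IkBα, the product of Nfkbia, which is itself a target gene of NF-kB and so closes a feedback loop.

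Levels are given in CPM, a gene's counts for every 1000000 gene counts, over the summed columns of a group. The summed counts were 3861881 for the CBTi-seq control cells, 3507123 for the knock cells, 7067278 for the control-labelled 3' library and 9162364 for the knock-labelled one. No pair of columns held the same values. The CBTi-seq columns held 41570 to 846819 counts and the 3' columns 399393 to 2496457. The 95% intervals of levels and ratios cover counting error only and leave out differences between columns. Those of shares of columns treat the columns as independent draws, although the columns of a group share a library and are not replicates. Rrm2, the targeted gene, had 480.9 CPM in control and 350.1 CPM in knock cells by CBTi-seq. In the 3' libraries it went against the label, with 39.1 CPM under the label control and 148.1 CPM under the label knock. Directions between the 3' libraries therefore follow their labels and nothing more.

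In CBTi-seq the chemokine genes Cxcl1, Ccl7 and Ccl2 and the lipocalin gene Lcn2 were higher in the knock cells, while Nfkbia was lower. By 3' sequencing Cxcl1, Ccl7, Lcn2, Csf1 and Nfkbia were all higher in the knock-labelled library, and Saa3 was lower. If a 3' column pools cells, fewer expressing cells and less RNA per cell cannot be told apart in it. Calls rest on size alone: a ratio of 2 or more, or its inverse, in genes with a mean of at least 50 CPM over the 2 groups. In CBTi-seq, 2 of the 6 listed genes at that level were called higher, namely Cxcl1 and Lcn2, where 0.343% of all 5243 genes were. None of the 6 was called lower, where 0.668% of all genes were. Of the 3' data, the 4 listed genes at that level, Ccl7, Lcn2, Csf1 and Nfkbia, were all called higher in the knock-labelled library, where 13.3% of 2826 genes were and 4.53% were called lower. The 6 CBTi-seq genes had a median log2 ratio of 0.84, where it was -0.01 over all genes, and the 4 genes of the 3' libraries one of 1.70, where it was 0.14 over all genes. Because the list was drawn up with these contrasts known, nothing is read from these counts and medians.

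**Figure D1:**
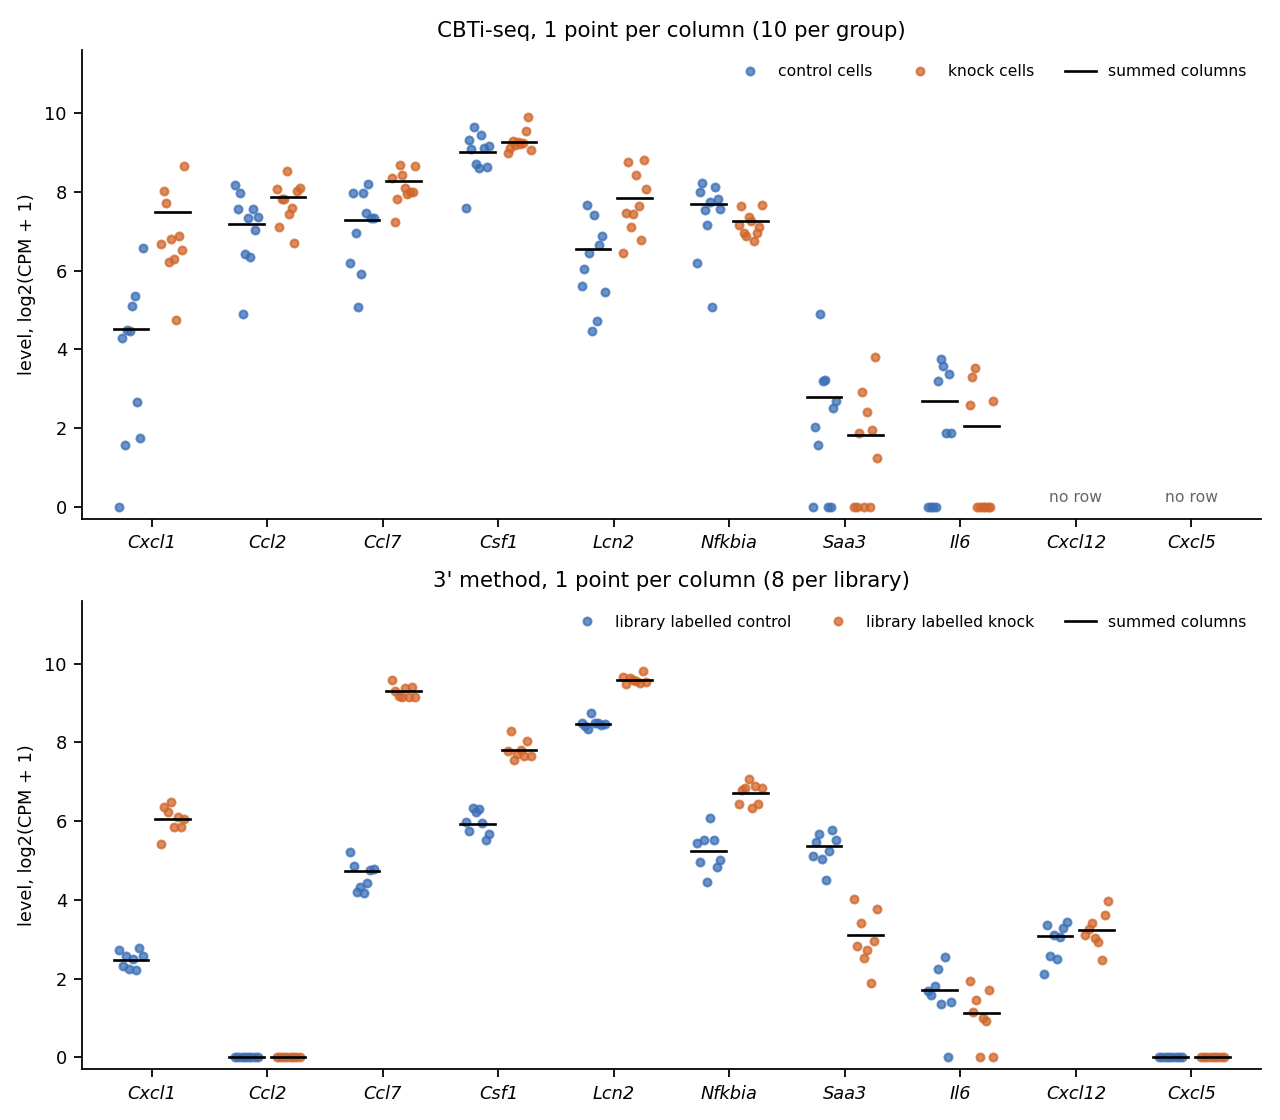
Level of each of the 10 genes, as log2(CPM + 1), in every CBTi-seq column (top, 10 control and 10 knock) and every 3' column (bottom, 8 per library); each point is 1 column and the black line is the level over the summed columns. In the 3' panel the points of the libraries labelled control and knock are apart for Cxcl1, Ccl7, Csf1, Lcn2, Nfkbia and Saa3, while in CBTi-seq the points of the groups overlap for every gene.

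Cxcl1 encodes a ligand of the receptor Cxcr2 that attracts neutrophils. The gene (ENSMUSG00000029380) occupies 90891241 to 90893115 of chromosome 5, plus strand, in GRCm38 and overlaps no other annotated gene. Across the 10 control cells Cxcl1 had a lowest level of 0 CPM, a median of 19.9 CPM and a highest of 94.8 CPM. Across the 10 knock cells the lowest was 25.8 CPM, the median 106.1 CPM and the highest 406.3 CPM. The groups overlapped, with 6 of 10 knock cells above the highest control cell and all 10 above the control median. Over the summed columns Cxcl1 stood at 21.8 CPM (17.3 to 26.9) in the control cells and at 177.9 CPM (164.2 to 192.4) in the knock cells, 8.18-fold higher (6.50 to 10.4). This was the highest ratio of all 5243 genes at that level. Knock column 10 held 299 of the 624 Cxcl1 counts of the knock cells, and without it the ratio was 5.39-fold. Without control column 10, the highest control cell, it was 12.7-fold. Control column 1 was too shallow to be thinned to 50000 counts. The 9 other control columns and the 10 knock columns, so thinned, gave a log2 ratio of 2.04, against 3.03 as measured. Weighting every column equally, which thinning also does to the columns it keeps, gave 2.62 without thinning.

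Cxcl1 was also the most uneven of the 6 listed genes at 50 CPM or more among the knock cells. Its coefficient of variation beyond counting error was 75.7%, where the median of 4889 genes at 50 CPM or more was 19.7% and 21 genes were more uneven. Among the control cells, where its level was lower, the value was 113.1%. After thinning, Cxcl1 was found in 4 of the 9 control cells deep enough and in all 10 knock cells. Without thinning it was found in 9 of 10 control cells (exact interval 55.5% to 99.7%) and in 10 of 10 knock cells (69.2% to 100%). These intervals treat the columns as independent draws. The columns are not replicates, so nothing about the knockdown is read from them.

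By 3' sequencing the Cxcl1 columns did not overlap. They ranged from 3.66 to 5.83 CPM (median 4.82) in the control-labelled library and from 41.7 to 87.8 CPM (median 67.1) in the knock-labelled library. Columns of the 3' libraries were apart, with the knock-labelled library higher, for 24.6% of the 2826 genes and, with it lower, for 11.7%. In CBTi-seq the columns were apart for 0.0763% and 0.114% of 5243 genes, none of them a listed gene. Summed, Cxcl1 was at 4.53 CPM (3.10 to 6.39) and 65.8 CPM (60.7 to 71.3), 14.5-fold higher in the knock-labelled library (10.2 to 21.4). Its mean level of 35.2 CPM was under the limit of 50 CPM for a call.

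The promoter of Cxcl1 is shown because Cxcl1 had the highest CBTi-seq ratio and its gene is a textbook target of NF-kB. RefSeq (GRCm38.p6) gave a window of 250 bases before to 50 bases after the start for 7 of the 10 genes, and Ccl2, Ccl7 and Cxcl5 had no entry. The kappaB consensus, the DNA pattern bound by NF-kB, was searched on both strands. The Cxcl1 window (chr5:90890995-90891294, plus strand) reads, with the consensus match in capitals:
Cxcl1: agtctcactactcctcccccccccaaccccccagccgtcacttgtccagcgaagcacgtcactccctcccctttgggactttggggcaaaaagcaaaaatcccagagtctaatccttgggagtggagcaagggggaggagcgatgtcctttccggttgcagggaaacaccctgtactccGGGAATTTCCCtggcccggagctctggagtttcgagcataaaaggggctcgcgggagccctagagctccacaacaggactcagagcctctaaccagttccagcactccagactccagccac
The capitals hold 2 overlapping matches, on opposite strands, from 71 to 61 bases before the start. At least 1 match was found in the windows of 4 of the 7 genes, Cxcl1, Csf1, Il6 and Nfkbia, and in 8.46% of the 32851 mouse windows of that length. In Il6 the match was GGGATTTTCC on the gene's strand, from 44 to 35 bases before the start. In Csf1 it was GGGACTTTCC on the opposite strand, from 154 to 145 bases before the start. The wider pattern GGGNNNNNCC, which contains many kappaB sites and was searched on both strands, was in 6 of the 7 windows and in 50.8% of all windows. A match describes the letters only and shows no binding.

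Cxcl5, the other listed ligand of Cxcr2, lies 129616 bases from Cxcl1 on chromosome 5, with 4 protein-coding genes between them. All 16 of the 3' columns held 0 counts of it, which by a floor of 3 counts allows up to 0.424 CPM in the control-labelled library and 0.327 CPM in the knock-labelled library. A 3' count of 0 bounds little by itself, since B2m, a gene that nearly all cells use, also had none, against 711.1 and 746.8 CPM in CBTi-seq. Cxcl12, a ligand of Cxcr4 that retains stem cells and lymphocytes in tissue, was at 7.50 CPM (5.62 to 9.81) in the control-labelled library and 8.40 CPM (6.63 to 10.5) in the knock-labelled library. The log2 ratio of Cxcl12 was 0.16 with an interval that included 0 (-0.36 to 0.70), and its columns overlapped.

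Ccl2 and Ccl7 encode chemokines for monocytes that both act through the receptor Ccr2. Their genes lie 8258 bases apart on chromosome 11, both on the plus strand, with no protein-coding gene between them. Ccl7 (ENSMUSG00000035373, 82045712 to 82047525) ranged from 32.6 to 291.9 CPM over the control cells, with a median of 160.8 CPM. Over the knock cells it ranged from 150.5 to 412.0 CPM, with a median of 264.5 CPM. The groups overlapped, with 4 of 10 knock cells above the highest control cell and 9 of 10 above the control median. Over the summed columns Ccl7 was at 156.4 and 311.9 CPM, 1.99-fold higher in the knock cells (1.80 to 2.21). That is just under the limit of 2-fold, and with TMM factors, median-of-ratios factors or a total that leaves out mitochondrial and ribosomal protein genes it was above it. With columns weighted equally (log2 ratio 0.87) or thinned to 50000 counts (0.67) it was further below.

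Ccl7 had the widest 3' difference of the listed genes. It ranged from 17.2 to 35.9 CPM (median 23.5) in the control-labelled library and from 569.9 to 769.6 CPM (median 605.0) in the knock-labelled library, so the columns were far apart. Summed, Ccl7 was at 25.6 CPM (22.0 to 29.6) and 632.0 CPM (615.9 to 648.5), 24.7-fold higher in the knock-labelled library (21.3 to 28.8). Only 3 of the 2826 genes at 50 CPM or more had a higher ratio there.

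Ccl2 (ENSMUSG00000035385, chromosome 11, 82035571 to 82037453) ranged from 29.0 to 288.7 CPM over the control cells, with a median of 161.2 CPM. Over the knock cells it ranged from 102.7 to 367.8 CPM, with a median of 226.5 CPM, and the groups overlapped almost entirely. Summed over the columns, Ccl2 was at 145.3 CPM (133.5 to 157.8) and 234.4 CPM (218.6 to 251.0), 1.61-fold higher in the knock cells (1.45 to 1.80). Ccl2 had no 3' count in any column. Its CBTi-seq level was thus at least 342.2-fold above the 3' level in the control groups and at least 715.8-fold above it in the knock groups, against a floor of 3 counts per library. A 3' count of 0 in both libraries was found for 5.27% of the 5197 shared genes that reached 50 CPM by CBTi-seq. Ccl2 overlaps the gene model Gm17268 on the opposite strand, which had no 3' count either. How the counting treats overlapping genes and strand is not given.

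Across the CBTi-seq columns Ccl2 and Ccl7 had the highest correlation of the 15 pairs among the 6 listed genes at 50 CPM or more. With the mean of each group removed, Pearson's r of log2(CPM + 1) was 0.57 over 20 columns, and it was 0.57 over the 10 control and 0.58 over the 10 knock cells alone. Within 1 group other pairs were higher, Lcn2 and Nfkbia (0.69) and Cxcl1 and Csf1 (0.62) in the control cells and Cxcl1 and Nfkbia (0.75) in the knock cells, with values of 0.09, -0.21 and -0.08 in the other group. The lowest control cell for both genes was column 4, at 29.0 CPM of Ccl2 and 32.6 CPM of Ccl7. Over these pairs r ranged from -0.47 (Ccl2 and Csf1) to 0.57. For Cxcl1 and Lcn2 it was -0.20, and for Cxcl1 and Ccl7 0.09. The columns share a library and differ in depth, so these values are a description.

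**Figure D2:**
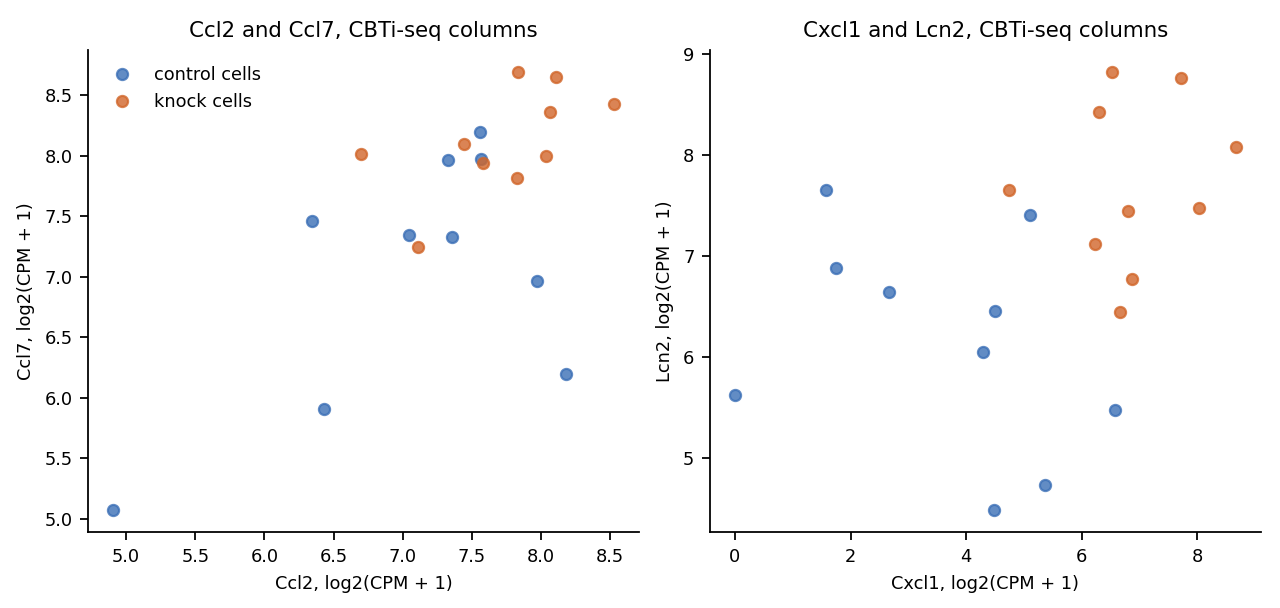
Levels of Ccl2 and Ccl7 (left) and of Cxcl1 and Lcn2 (right), as log2(CPM + 1), with 1 point per CBTi-seq column (10 control, 10 knock). On the left the points lie along a rising band (r of 0.57 with group means removed), and on the right the knock cells lie mostly to the upper right of the control cells with no such band within a group (r of -0.20).

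Of the secreted cytokines, Csf1 encodes the colony-stimulating factor that macrophages need to survive. It ranged from 192.4 to 796.4 CPM (median 546.0) over the control cells and from 509.6 to 953.9 CPM (median 596.0) over the knock cells. Only 1 knock cell lay above the highest control cell. Over the summed columns the Csf1 levels were 517.4 and 610.5 CPM, 1.18-fold higher in the knock cells (1.11 to 1.25). The 3' columns of Csf1 did not overlap, with 45.2 to 80.1 CPM (median 61.3) in the control-labelled library and 187.8 to 309.2 CPM (median 212.5) in the knock-labelled library. The 3' levels of 59.3 and 222.0 CPM gave a ratio of 3.74 (3.37 to 4.17).

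Il6 encodes interleukin-6, the inducer of the hepatic acute-phase response. It was close to the floor everywhere, with 21 counts in the control and 11 in the knock cells of CBTi-seq, and 16 and 11 counts in the control- and knock-labelled 3' libraries. Its log2 ratios were -0.79 (-1.99 to 0.32) and -0.92 (-2.17 to 0.28), with both intervals including 0. It was found in 6 of 10 control cells (26.2% to 87.8%) and 4 of 10 knock cells (12.2% to 73.8%). The intervals of these shares treat the columns, which are not replicates, as independent draws. By the counts of Il6 no difference was detectable at this depth.

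Lcn2 encodes lipocalin-2, a secreted protein that binds bacterial siderophores and so keeps iron from bacteria. The gene (ENSMUSG00000026822) lies on chromosome 2 from 32384633 to 32388252 on the minus strand. Over the control cells Lcn2 ranged from 21.3 to 200.7 CPM, with a median of 75.9 CPM. Over the knock cells it ranged from 85.8 to 450.8 CPM, with a median of 188.5 CPM. The groups overlapped, although all 10 knock cells lay above the control median and 4 above the highest control cell. The summed levels of Lcn2 were 93.5 CPM (84.1 to 103.6) and 230.7 CPM (215.1 to 247.1), 2.47-fold higher in the knock cells (2.18 to 2.80). Lcn2 was uneven in both groups, with a coefficient of variation beyond counting error of 65.4% among the control cells, which 486 of 5169 genes exceeded, and of 53.6% among the knock cells, which 125 of 4889 genes exceeded.

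By 3' sequencing the Lcn2 columns ranged from 323.0 to 429.0 CPM (median 354.3) in the control-labelled library and from 710.5 to 893.0 CPM (median 763.0) in the knock-labelled library, and did not overlap. The levels of 354.5 and 771.1 CPM gave a ratio of 2.18 (2.08 to 2.28), with an interval that overlaps that of CBTi-seq. With TMM factors the log2 ratio was 0.97, just under the limit for a call. The promoter window of Lcn2 (chr2:32387690-32387989, minus strand) is shown beside that of Cxcl1 because Lcn2 was, with Cxcl1, called higher in the knock cells of CBTi-seq, and it holds no kappaB consensus match:
Lcn2: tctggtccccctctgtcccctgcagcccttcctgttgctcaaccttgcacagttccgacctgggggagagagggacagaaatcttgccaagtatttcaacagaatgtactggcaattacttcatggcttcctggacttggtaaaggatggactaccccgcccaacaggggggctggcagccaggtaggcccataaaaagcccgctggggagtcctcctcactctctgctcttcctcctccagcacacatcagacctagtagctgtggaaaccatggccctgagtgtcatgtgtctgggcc
No match says only that these letters are not in this window. The window lies within the gene span given above (32384633 to 32388252), so its RefSeq start is not the outermost start of that gene model.

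Saa3, an acute-phase apolipoprotein gene that fibroblasts and macrophages express, went the other way. Its 3' columns ranged from 21.8 to 54.0 CPM (median 39.9) in the control-labelled library and from 2.74 to 15.2 CPM (median 6.46) in the knock-labelled library, with no overlap. The levels of 40.0 CPM (35.5 to 45.0) and 7.64 CPM (5.96 to 9.65) gave a log2 ratio of -2.39 (-2.79 to -2.01). By CBTi-seq it had only 23 counts in the control and 9 in the knock cells (log2 ratio -1.21, -2.51 to -0.05), with columns from 0 to 29.0 CPM and from 0 to 13.1 CPM that overlapped. Saa3 stood under 50 CPM in both assays, so it entered no count of calls.

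Nfkbia differed in direction between the assays. Over the control cells of CBTi-seq it ranged from 32.8 to 299.0 CPM, with a median of 202.1 CPM, and over the knock cells from 106.4 to 202.5 CPM, with a median of 139.2 CPM. The knock cells lay inside the range of the control cells, and 1 of 10 was above the control median. The levels of 206.9 CPM (192.8 to 221.8) and 151.4 CPM (138.8 to 164.8) gave a log2 ratio of -0.45 (-0.61 to -0.29). Its 3' columns ranged from 20.8 to 67.0 CPM (median 37.1) and from 80.1 to 134.2 CPM (median 111.7) without overlap. The levels there were 36.8 CPM (32.5 to 41.5) in the control-labelled library and 103.5 CPM (97.0 to 110.3) in the knock-labelled library, a log2 ratio of 1.49 (1.29 to 1.70). It was 0.89 with each column thinned to 50000 counts. The difference in direction rests on the 3' labels, which Rrm2 goes against, and was not tested. The Nfkbia window (chr12:55492598-55492897, minus strand) is shown because it carries a consensus match, in capitals, on the opposite strand from 29 to 20 bases before the start:
Nfkbia: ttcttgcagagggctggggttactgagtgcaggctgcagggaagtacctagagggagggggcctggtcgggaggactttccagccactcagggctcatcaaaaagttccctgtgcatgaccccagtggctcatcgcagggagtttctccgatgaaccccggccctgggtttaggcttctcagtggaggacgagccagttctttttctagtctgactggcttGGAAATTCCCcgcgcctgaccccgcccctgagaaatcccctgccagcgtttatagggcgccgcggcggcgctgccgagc
The same letters GGGAATTTCC, read on the strand of the match, occur in the window of Cxcl1.

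**Figure D3:**
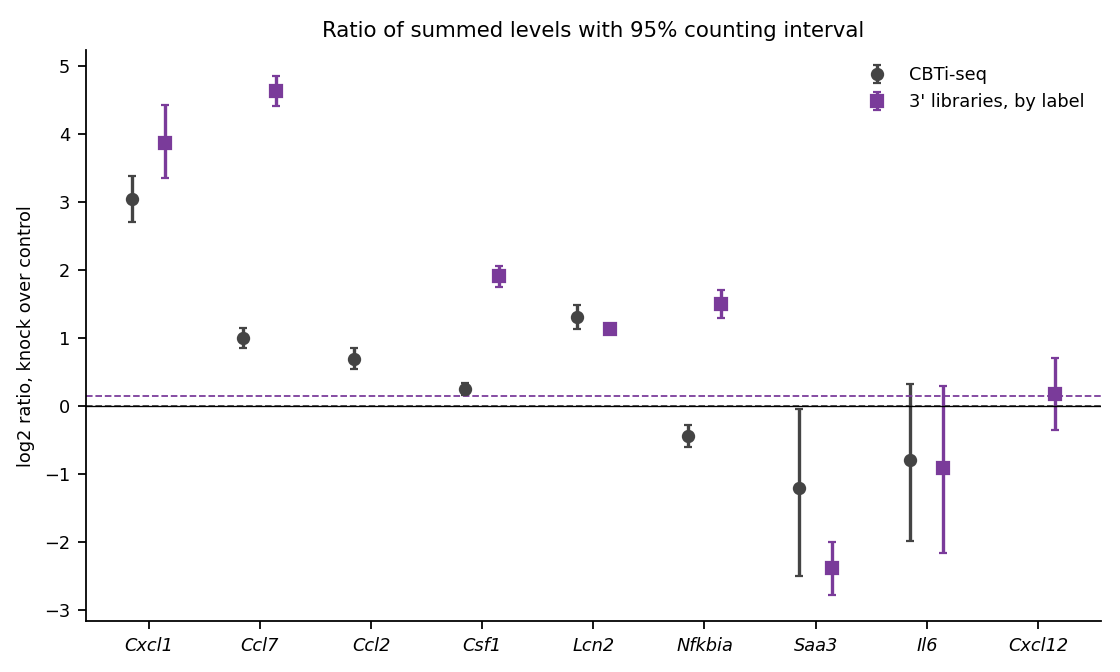
Log2 ratio of knock over control for 9 of the genes in CBTi-seq (circles) and in the 3' libraries by their labels (squares), with 95% counting intervals; dashed lines are the medians over all genes at 50 CPM or more (-0.01 and 0.14). Cxcl1, Ccl7, Csf1 and Lcn2 lie above 0 in both assays, Nfkbia lies below 0 in CBTi-seq and above it in the 3' libraries, and Cxcl5 has no ratio.

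**Figure D4:**
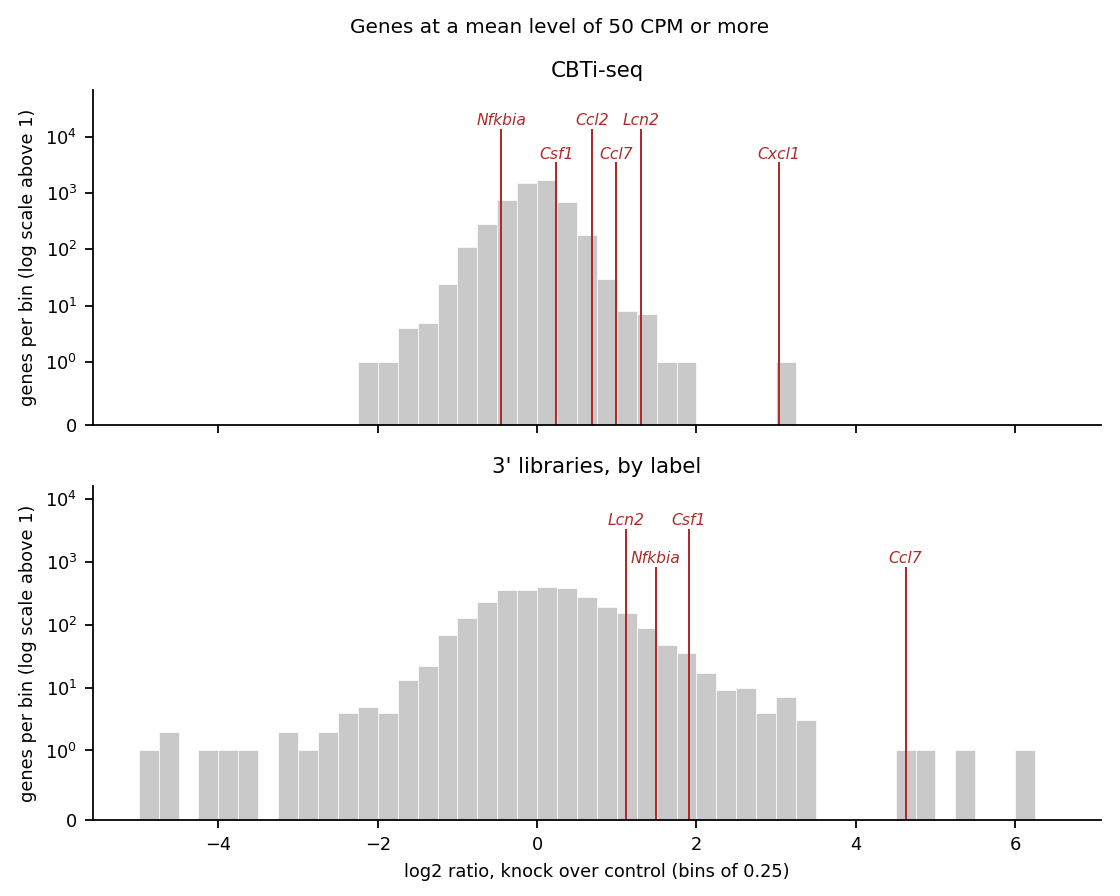
Number of genes in bins of the log2 ratio of knock over control, among 5243 genes in CBTi-seq (top) and 2826 in the 3' libraries (bottom) at 50 CPM or more, with red lines at the listed genes that reached that level; the vertical axis is logarithmic above 1. Cxcl1 stands at the far right in CBTi-seq at 3.03, and Ccl7 near the far right in the 3' libraries at 4.63.

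The same genes were read at different levels by the assays. With the groups paired by label, Cxcl1 was 4.80-fold (3.16 to 7.46) higher in the CBTi-seq control cells than in the control-labelled 3' library, Ccl7 6.11-fold (5.16 to 7.25), Nfkbia 5.62-fold (4.88 to 6.49) and Csf1 8.73-fold (7.85 to 9.72). At least 2-fold higher CBTi-seq levels were seen for 54.7% of 4086 genes in that pairing, and at least 2-fold higher 3' levels for 11.7%. Since Rrm2 goes against the 3' labels, the control cells were also set against the knock-labelled library. There Cxcl1 was at 0.330 of the 3' level (0.260 to 0.416), Ccl7 at 0.247 (0.227 to 0.269), Nfkbia 2.00-fold higher (1.82 to 2.20) and Csf1 2.33-fold higher (2.19 to 2.48) in CBTi-seq. In the knock groups by label Ccl7 was at 0.494 (0.462 to 0.527) of the 3' level, while Cxcl1 and Nfkbia were higher in CBTi-seq. The knock cells were above the control-labelled library for Cxcl1 (39.3-fold), Ccl7 (12.2-fold) and Nfkbia (4.12-fold). For Ccl7 the assay that read higher thus differed between the groups under either labelling, and for Cxcl1 only with the labels turned. The CBTi-seq level of Lcn2 was below the 3' level in every pairing, at 0.264 (0.236 to 0.295) of it for the control and 0.299 (0.278 to 0.322) for the knock groups by label, and at 0.121 (0.109 to 0.135) and 0.651 (0.600 to 0.705) for the control and knock cells with the labels turned. Csf1 was higher in CBTi-seq in all of them, by 2.33-fold to 10.3-fold. In the knock groups by label 43.8% of 4106 genes were at least 2-fold higher in CBTi-seq and 10.7% in the 3' library. The assays were normalized separately to their own totals and their sets of genes differ.

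Of 26 other chemokine ligand genes, 10 had a CBTi-seq row, and 14 of the 26 had no 3' count. Only 3 reached a mean level of 20 CPM in CBTi-seq. Cxcl2, a neutrophil chemokine that shares the receptor Cxcr2 with Cxcl1, was at 6.99 CPM in the control and 39.1 CPM in the knock cells, with a log2 ratio of 2.48 (1.88 to 3.14). From 20 CPM up, 0.536% of 8391 genes had at least 2-fold higher and 2.42% at least 2-fold lower levels in the knock cells. Ccl9 and Ccl25 had log2 ratios of -0.12 (-0.36 to 0.12) and -0.21 (-0.65 to 0.23). By 3' sequencing Cxcl2, looked up after its CBTi-seq value was seen, was at 5.38 CPM and 31.3 CPM (log2 ratio 2.54, 2.05 to 3.07), with a mean just under 20 CPM. Ccl9 and Ccl25, the ligand genes above that level, had 3' log2 ratios of 0.53 (0.38 to 0.68) and 0.75 (0.41 to 1.09). There 17.3% of 5701 genes had at least 2-fold higher and 5.68% at least 2-fold lower levels in the knock-labelled library. The other chemokine genes next to Ccl2 and Ccl7 in the chromosome 11 cluster, Ccl8, Ccl11 and Ccl12, looked up for their position, had no count in the 3' tables and no CBTi-seq row.

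Of 26 genes of receptors for these ligands, 14 had a CBTi-seq row and 12 a 3' count. Only Il6st and Il6ra, the signalling and binding chains of the interleukin-6 receptor, reached 20 CPM in CBTi-seq, and only Il6st and Cxcr5 in the 3' libraries. Il6st, at 100.5 and 121.2 CPM in CBTi-seq, had log2 ratios of 0.27 (0.07 to 0.47) and 0.97 (0.74 to 1.20). Il6ra, at 19.2 and 21.1 CPM in CBTi-seq, had a log2 ratio of 0.14 (-0.35 to 0.62) there. Under 20 CPM in the 3' libraries and looked up, it went the other way, with 73 and 22 counts (-2.10, -2.86 to -1.40). Csf1r, the receptor of the Csf1 product, looked up outside the naming rule, had 50 counts in control and 30 in knock cells of CBTi-seq, against 1 and 0 by 3' sequencing.

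Of 36 genes of NF-kB subunits, inhibitors and upstream signalling, 24 reached 20 CPM in CBTi-seq, with 6 higher and 18 lower in the knock cells and none 2-fold apart. Their median log2 ratio was -0.24, where that of all 8391 genes was -0.05 and 44.7% of genes were higher. Ikbkg, the regulatory subunit of the IkB kinase, had the widest difference, at -0.96 (-1.26 to -0.66), although its 15 and 107 counts in the 3' libraries went the other way by label (2.46, 1.67 to 3.35). The endotoxin receptor gene Tlr4 stood at -0.50 (-0.89 to -0.11). By 3' sequencing 9 of the genes reached 20 CPM, with 6 higher and 3 lower in the knock-labelled library and a median of 0.35, where 58.8% of all 5701 genes were higher and their median was 0.18. The adaptor gene Traf2 was at 1.11 (0.83 to 1.40) and the receptor gene Tnfrsf1a at 0.92 (0.62 to 1.22).

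Among 20 other acute-phase and NF-kB responsive genes, 6 reached 20 CPM in CBTi-seq, with 3 higher and 3 lower, where 44.7% of all 8391 genes were higher. Ceruloplasmin (Cp) and Socs3, the inhibitor of interleukin-6 signalling, were the ones at least 2-fold lower, where 2.42% of all genes were. Their log2 ratios were -2.00 (-2.27 to -1.73) and -1.65 (-2.06 to -1.26). Socs3 had 1 and 15 counts in the 3' libraries, in the opposite direction by label (log2 ratio 3.53, 0.83 to 8.93). The 3 genes at that level in the 3' libraries, Sod2, Ier3 and Cebpd, were higher in the knock-labelled library, where 58.8% of all 5701 genes were, with Ier3 at 1.18 (1.02 to 1.34). Of 26 other cytokine and mediator genes, 6 reached 20 CPM in CBTi-seq, with 4 higher and 2 lower, against the same 44.7% of all genes higher. Grem1, a secreted antagonist of bone morphogenetic proteins, was at 1.20 (0.84 to 1.56) and the growth factor gene Vegfa at -0.90 (-1.17 to -0.63). Of 5 at that level in the 3' libraries 3 were higher, against 58.8% of all genes, among them osteopontin (Spp1) at 1.32 (1.23 to 1.41), and the alarmin gene Il33 was lower at -0.97 (-1.27 to -0.67).

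Fibroblast markers were present in every group, with 10 of 14 counted in the CBTi-seq groups, led by Vim at 976.2 and 1071 CPM, while Thy1, Fap, Lum and Dcn had no row there. In the control- and knock-labelled 3' libraries 12 and 13 of the 14 had a count. Macrophage markers, of interest because macrophages make the same factors, summed to 21.0 to 181.0 CPM per control cell and 10.6 to 54.5 CPM per knock cell in CBTi-seq. They summed to 65.5 to 120.2 CPM per column in the 3' control-labelled library and 136.4 to 189.6 CPM in the one labelled knock. Cd68, a lysosomal gene that other cells express too, made up most of these sums. Of the other macrophage markers, Adgre1 had 67 and 62 counts and Lyz2 26 and 114 counts in the control- and knock-labelled 3' libraries, while Adgre1 had no CBTi-seq row and Lyz2 20 and 12 counts there. Itgam and Fcer1g, and the pan-leukocyte gene Ptprc, had no row in CBTi-seq and no 3' count, and the same held for the neutrophil markers S100a8 and S100a9. Of 5 epithelial markers, 2 and 4 had a count in the control- and knock-labelled 3' libraries, where their sums ran from 139.0 to 251.6 CPM and from 96.8 to 180.9 CPM per column, most of it Cdh1. No CBTi-seq row was found for the 4 endothelial markers, which all had a count in both 3' libraries (32.3 and 33.4 CPM summed). The fibroblast sums ran from 766.2 to 969.7 CPM and from 1686 to 1885 CPM there. These sums were apart in the same direction as Cxcl1, Ccl7, Csf1, Lcn2 and Nfkbia. Vim (644.1 and 1169 CPM) and S100a4 (99.3 and 330.0 CPM) made up most of them. Col1a1, Col1a2, Col3a1, Col6a1, Pdgfrb and Fn1 were also higher in the knock-labelled library. Dcn (18.1 and 4.80 CPM), Col5a2 (77.8 and 68.3 CPM), Thy1, Lum and Pdgfra were lower there. By CBTi-seq the fibroblast markers summed to 2041 CPM over the control and 1978 CPM over the knock cells. Vim and S100a4 (541.2 and 560.0 CPM) made up most of these sums too. Both were higher in the knock cells, as were Col5a2 and Col3a1. Col1a2 (101.0 and 42.2 CPM), Pdgfrb (104.6 and 58.7 CPM), Col6a1 (109.8 and 71.0 CPM), Fn1, Col1a1 and Pdgfra were lower in the knock cells. The part of these markers in the results was not tested.

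By a fixed rule, the genes whose levels followed each of Cxcl1, Ccl7 and Lcn2 most closely were sought over the 20 CBTi-seq columns, with group means removed, among 5242 other genes at 50 CPM or more. For Cxcl1 they were Isyna1 (r of 0.83), Mtch1 (0.73) and Ubxn11 (0.73). For Ccl7 they were Gm17638 (0.80), Ndufaf2 (0.77) and Chchd5 (0.76), and for Lcn2 Ndufv2 (0.68), Cldn12 (0.61) and Man1a2 (0.61). No listed gene was among them. These are the highest of 5242 values each over columns of 1 library, and nothing is read from them.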

How the data were processed

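RNA of L929 cells was measured in 3 samples, 1 CBTi-seq sample and 1 library per group of the 3' method. The values the authors deposited are whole counts for each gene in each column, not normalized. The sources used here do not say whether 3' counts are reads or unique molecular identifiers, nor how genes were counted or strand was used. The submitters' processing notes name STAR 2.7.11b, Picard, FastQC and the builds GRCm38 and GRCh38, without roles.

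Of 55402 identifiers in the 3' tables, 55141 matched a symbol in GENCODE vM21 (GRCm38), and the rest held 0.0194% and 0.0329% of the counts. Every CBTi-seq row holds a count, so a gene without a row is not read as 0. Group levels are sums of counts over columns, relative to the total of all gene counts. Levels carry exact Poisson intervals, ratios exact conditional (Clopper-Pearson) intervals and shares of columns exact binomial intervals, all at 95%. With 1 sample per group there was no test. The members and lists were chosen with earlier results of these data known. Genes named are the 10 listed, Rrm2, up to 3 per other list and assay with the largest ratio at 20 CPM or more, and the 3 most alike to Cxcl1, Ccl7 and Lcn2; others, among them B2m, Cxcl10, Nfkbiz, Socs3 and Ikbkg by 3' sequencing, and marker genes, were looked up. TMM factors came from edgeR 4.0.16 and median-of-ratios factors from DESeq2 1.42.0 in R 4.3.3; the rest used scipy 1.17.1, pandas 2.3.3 and numpy 2.4.6 in Python 3.11.15. On simulated counts for CBTi-seq (20716 genes) and the 3' tables (55295 genes), the interval held the true ratio for 97.5% and 96.5% of altered genes. These were Poisson counts from 1 profile for all columns of a group, without the spread between columns that the data hold. The shares therefore check the counting error only.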

Additional observations from a re-analysis of the deposited data

How the results depend on the processing

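The columns are not replicates, so leaving each out shows only what 1 column carries. No paired analysis was possible because each group is 1 sample and the column numbers pair nothing. In CBTi-seq, where 18 genes were at least 2-fold higher and 35 lower, equal weights gave 66 lower, thinned columns gave 46 and 122, a limit of 20 CPM gave 45 and 203, a limit of 100 CPM gave 4 and 12, and no limit gave 1285 and 1889. Leaving out columns gave 15 to 22 higher and 33 to 54 lower, with 54 without knock column 10. Of the listed genes, 2 to 3 were at least 2-fold higher without any 1 column, and 1 (Lcn2) at a limit of 100 CPM, which Cxcl1 misses narrowly. Between the 3' libraries, where 377 genes were higher and 128 lower, TMM factors gave 206 lower, median-of-ratios factors 208, and a total that leaves out mitochondrial and ribosomal protein genes 246; a limit of 20 CPM gave 986 and 324, of 100 CPM 176 and 79, and no limit 3749 and 2177. TMM factors moved the share of higher calls from 74.7% to 56.7% there and the median of all genes from 0.14 to -0.02, and in CBTi-seq equal weights moved that share from 34.0% to 21.4%. Leaving out columns gave 362 to 383 higher and 121 to 133 lower there, and 4 listed genes called each time. Of those 4, Lcn2 was lost with TMM or median-of-ratios factors or without mitochondrial and ribosomal protein genes, and Nfkbia when thinned or at 100 CPM, leaving 3, while limits of 20 CPM or none added Cxcl1, giving 5. No log2 ratio of a listed gene whose interval excluded 0 changed sign under any setting that gave a value; thinning gave none for Cxcl1 in the 3' libraries or Saa3 in CBTi-seq. A correction for identifier collisions, chosen after seeing that no gene passed 638 counts in a CBTi-seq column, gave 3 listed genes at least 2-fold higher, Ccl7 being the added gene.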

Other observations

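Some inflammatory genes at low levels had more than 3 counts in 1 group of an assay and none in the other. Of 95 genes on the other lists with more than 3 counts in a 3' library, 9 were of that kind in the knock-labelled and 6 in the control-labelled library, where 6.3% and 2.56% of all 17046 such genes were. In CBTi-seq it was 3 of 94 in the knock and 5 of 94 in the control cells, where 1.35% and 2.93% of all 15984 such genes were. Looked up as the ones with the highest bound, Grem1 was at least 32.1-fold higher in the knock-labelled library and the interferon-induced chemokine gene Cxcl9 at least 13.0-fold higher in the control-labelled one, against the floor of 3 counts per library. In CBTi-seq these were Tnf, the gene of tumour necrosis factor, higher in the knock cells by at least 5.51-fold, and the guanylate-binding protein gene Gbp2, higher in the control cells by at least 3.33-fold. Ccl20, a chemokine for lymphocytes and dendritic cells, had 86 and 0 counts in the knock- and control-labelled 3' libraries. In CBTi-seq it had 6 and 0 counts in the knock and control cells. Cxcl10, another interferon-induced chemokine gene, had 16 counts in the control and 1 in the knock cells of CBTi-seq (log2 ratio -3.86, -9.25 to -1.17), and had no 3' count.

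Of 26 interferon response genes, 7 reached 20 CPM in CBTi-seq, with 3 higher and 4 lower in the knock cells, and 5 in the 3' libraries, with 2 higher and 3 lower in the knock-labelled library. Over all genes at that level 44.7% and 58.8% were higher. Isg20, an interferon-induced exonuclease gene, was lower in both, at 242 and 56 counts in CBTi-seq (log2 ratio -1.97, -2.42 to -1.55) and at 49.4 and 15.1 CPM in the 3' libraries (-1.71, -2.01 to -1.42). Its 3' columns did not overlap, and its CBTi-seq columns did. Between the 3' libraries Irf3 and Stat3, genes of transcription factors, were higher in the knock-labelled library, with log2 ratios of 1.28 (1.01 to 1.55) and 1.21 (0.96 to 1.46).

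The genes Cp and Nfkbiz, which encodes an atypical IkB protein, differed in direction between the assays as Nfkbia did, and so did Ikbkg and Socs3; Nfkbiz and the 3' values were looked up after values were seen. Cp was at 2.83 and 30.1 CPM in the control- and knock-labelled 3' libraries (log2 ratio 3.41, 2.76 to 4.15), against -2.00 in CBTi-seq. Nfkbiz had log2 ratios of -0.46 (-0.76 to -0.16) in CBTi-seq and 2.07 (1.62 to 2.54) in the 3' libraries. Rrm2 differed in the same way, with log2 ratios of -0.46 in CBTi-seq and 1.92 in the 3' libraries. These differences thus rest on the 3' labels. With the labels turned, the genes named here would have 1 direction in both assays. Cxcl1, Ccl7, Lcn2, Csf1 and Saa3 would then differ in direction. These differences between assays were not tested.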
